A study of Mus musculus with 12 samples.

Results

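Gene expression was compared by RNA-seq between ovarian stromal tissue (OST) of ovaries injected with semaphorin 3E (Sema3E) and OST of ovaries injected with immunoglobulin G (IgG), with 3 libraries in each group out of 12 in the series. The genes examined were those annotated as protein-coding with a value above 1 TPM in at least 1 of the 6 OST libraries, which gave 13050 of 17174 protein-coding genes and of 23150 genes of all kinds. TPM is a read number scaled to transcript length and to the same total in each library. Just inside this limit was Kcna3 with a highest value of 1.001 TPM, and just outside it was Pik3ap1 with 0.9996 TPM. The mice were wild-type immature C57BL/6J females that had been given pregnant mare serum gonadotropin to grow follicles and then human chorionic gonadotropin (hCG), which acts in place of the surge of luteinizing hormone (LH). One ovary of a mouse received 2 µg of recombinant mouse Sema3E in 10 µL of buffered saline with albumin and the opposite ovary received the same amount of IgG, so that both groups carried the puncture, the carrier and the hormones. OST was the tissue left at 8 h post-hCG after granulosa cells (GCs) had been released by puncturing the follicles with a needle, and the tissue from 1 ovary made 1 replicate. It therefore still held small follicles, theca, vessels, blood and surface epithelium. The file does not say which libraries came from opposite ovaries of 1 mouse, and in bulk tissue fewer cells of a type and less RNA per cell cannot be told apart.

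Sema3E is a secreted guidance protein that binds Plexin-D1, a receptor found mainly on endothelial cells, and is known for repelling growing vessels. The ovarian stroma contains the vessels, fibroblasts and steroid-producing interstitial and theca cells around the follicles. After the LH surge it takes part in an inflammation-like reaction in which leukocytes enter, matrix is degraded and new vessels grow towards the follicle.

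One control library stood apart from the other 5. On the first principal component, which held 75.92% of the variance, IgG replicate 3 lay at 77.77 and the others between -26.3 and -7.86. Star, which delivers cholesterol to the mitochondria for steroid synthesis, was at 1599 and 1535 TPM in IgG replicates 1 and 2, 12.1 TPM in IgG replicate 3, and 1173, 1509 and 1801 TPM in Sema3E replicates 1, 2 and 3. Ptgs2, the prostaglandin synthase induced by the LH surge, was at 29.9, 28.3 and 0.194 TPM with IgG and at 22.8, 24.3 and 50.1 TPM with Sema3E. Both genes were therefore low in the same single control. Of 28 listed genes of the ovulatory response 27 had their lowest value in IgG replicate 3, whereas 20 of 21 oocyte genes had their highest value there, among them Zp3 of the zona pellucida (72.1, 84.4 and 236 TPM with IgG and 81.4, 72.4 and 48.2 TPM with Sema3E). Amh, made by granulosa cells of small follicles, was at 707, 722 and 3073 TPM with IgG, and Foxj1, of ciliated epithelium, at 0.347, 0.171 and 23.4 TPM. What set this ovary apart was not tested. The main results below are given with all 6 libraries and again with 5, without IgG replicate 3. Protein-coding genes made up 84.67% to 87.82% of the TPM of a library and mitochondrial genes 15.68% to 20.32%. Since TPM keep no record of read numbers, the depth behind each value is unknown.

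**Figure D1:**
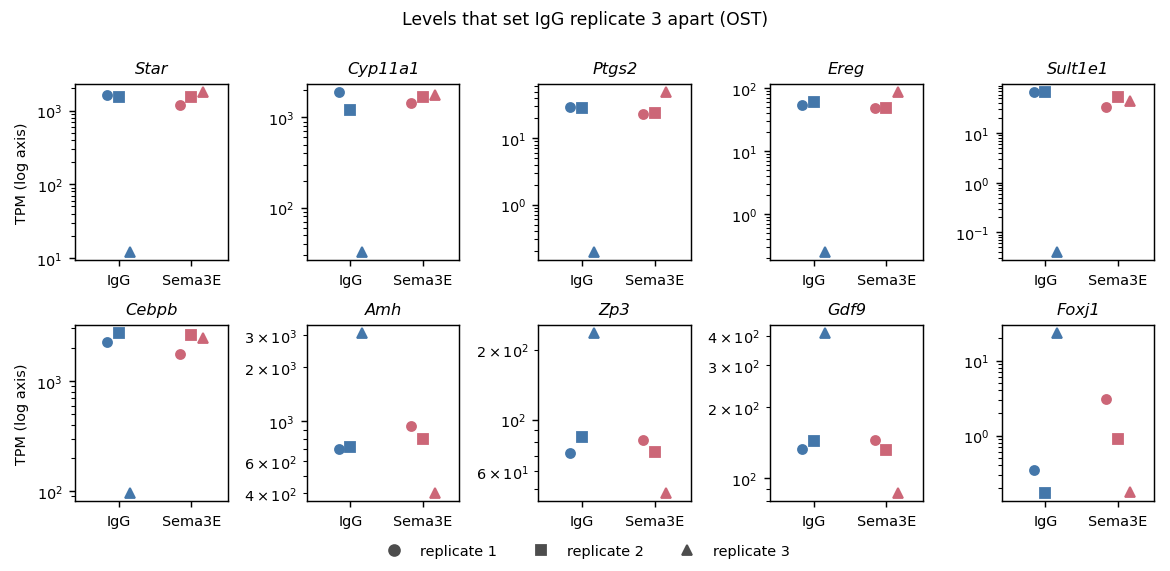
TPM on a log axis for 10 genes in the 3 IgG (blue) and 3 Sema3E (red) OST libraries, 1 symbol per library and the shape giving the replicate. In IgG replicate 3 (blue triangle), Star, Cyp11a1, Ptgs2, Ereg, Sult1e1 and Cebpb lie far below the other 5 libraries, and Amh, Zp3, Gdf9 and Foxj1 above them.

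No gene differed between Sema3E and IgG at an adjusted p under 0.05 (0% of the 13050 genes, limma with Benjamini-Hochberg adjustment, lowest adjusted p = 0.282). Without IgG replicate 3, 1 gene passed (0.00766%). At an unadjusted p under 0.05 in limma, 206 genes were higher with Sema3E (1.58%) and 2094 were lower (16.0%), and without IgG replicate 3 these were 352 (2.70%) and 2775 (21.3%). All 3 Sema3E libraries lay above all 3 IgG libraries for 484 genes (3.71%) and below them for 4361 (33.4%). This excess of lower genes went with a shift of the whole distribution. The median log2 difference over all genes was -0.17, and scaling the libraries by median ratios moved it by 0.18, after which 798 genes were higher (6.11%) and 552 lower (4.23%). The cutoffs used in the study, a fold change above 2 at p under 0.05 before adjustment, were passed by 37 genes that were higher (0.284%) and 17 that were lower (0.130%), or 57 and 6 after scaling. Without IgG replicate 3 the cutoffs were passed by 24 (0.184%) and 8 (0.0613%). Of the same 13050 genes, 121 and 133 passed without IgG replicate 1, and 69 and 74 without IgG replicate 2. A fold from the ratio of group means gave 73 and 83 with 6 libraries. The genes shared by the fits with 6 libraries and without IgG replicate 3 numbered 20 and 5. The groups of 3 did not overlap for any of these 25, which their choice by p and fold in both fits favours. All 25 had an adjusted p of 0.282 with 6 libraries, and between 0.136 and 0.207 without IgG replicate 3 (limma), so none of them passed an adjusted threshold.

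The genes with the largest positive differences belong to neutrophils, the first leukocytes to enter inflamed tissue. S100a8, which encodes 1 subunit of the antimicrobial protein calprotectin, was at 6.68, 7.23 and 0 TPM in IgG replicates 1, 2 and 3 and at 102, 22.8 and 34.1 TPM in Sema3E replicates 1, 2 and 3. The groups did not overlap, and Sema3E replicate 1 was the highest. The log2 difference was 3.47 (standard error 0.95, limma adjusted p = 0.282), and 2.48 (standard error 0.58, limma adjusted p = 0.185) without IgG replicate 3. S100a9, which encodes the other subunit, was at 3.34, 3.65 and 0.513 TPM with IgG and at 49.4, 11.3 and 18.7 TPM with Sema3E, in the same order of libraries as S100a8. Its log2 difference was 2.88 (standard error 0.64, limma adjusted p = 0.282), and 2.36 (standard error 0.55) without IgG replicate 3. Retnlg, a resistin-like protein of mouse granulocytes, was at 0.435, 1.07 and 0 TPM with IgG and at 15.7, 3.83 and 2.64 TPM with Sema3E (log2 difference 2.21, standard error 0.60, and 1.95 without IgG replicate 3). Cxcr2, the receptor through which neutrophils follow chemokines, was at 0.375, 0.416 and 0 TPM with IgG and at 3.12, 1.44 and 1.75 TPM with Sema3E. Its log2 difference was 1.27 (standard error 0.25), and 1.11 (standard error 0.22) without IgG replicate 3. Csf3r, the receptor for the growth factor of granulocytes, was also below 0.36 TPM in each IgG library and at 1.96, 0.870 and 1.99 TPM with Sema3E (log2 difference 0.99, standard error 0.22, and 0.94 without IgG replicate 3). Cxcr2 and Csf3r entered the analysis through Sema3E libraries alone.

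**Figure D2:**
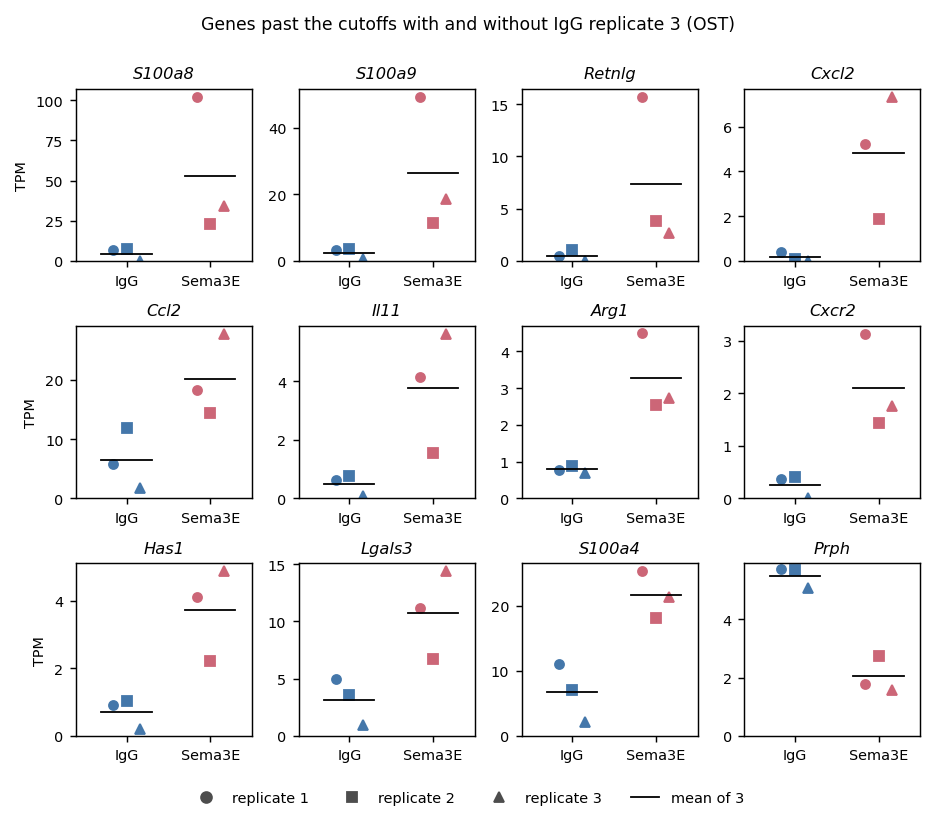
TPM of 12 genes that pass a fold change above 2 at p under 0.05 before adjustment both with and without IgG replicate 3, in IgG (blue) and Sema3E (red) OST libraries, with symbols for the replicates and a bar for the mean of 3. The 3 Sema3E libraries lie above the 3 IgG libraries for the first 11 genes, with S100a8 at 102, 22.8 and 34.1 TPM against at most 7.23, and below them for Prph.

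Across the neutrophil list of 28 genes, 26 were found in the file and 18 passed the limit of 1 TPM, 8 of them through Sema3E libraries alone. Of the 18, 12 were higher at an unadjusted p under 0.05 (11 without IgG replicate 3) and 0 were lower. Their median log2 difference was 0.98 (0.80 without IgG replicate 3) against -0.17 for all genes. This list and those below were chosen with earlier results of these data known, so their counts and medians are not independent of that choice. All 613 listed genes that passed the limit had a median of 0.17 (-0.05 without IgG replicate 3), with 52 higher and 32 lower. Because a gene that enters only through the group where it is high has to differ, the neutrophil list was also counted with no limit on TPM. There 14 of 26 were higher and 0 lower, and 12 of 26 were higher without IgG replicate 3. In that fit 1.59% of 17165 genes were higher and 13.7% lower. The summed TPM of the list were 51.8, 53.9 and 26.8 in the IgG libraries and 273, 88.2 and 158 in the Sema3E libraries. The list was uneven. Lcn2, Ltf and Camp, which encode granule proteins loaded before neutrophils leave the marrow, overlapped between the groups, with Lcn2 at 11.8, 16.4 and 3.59 TPM with IgG and 31.8, 11.2 and 21.7 TPM with Sema3E. Ngp, a further granule gene of the list, was low but did not overlap. It was at 0, 0.185 and 0.194 TPM with IgG and at 2.09, 0.799 and 0.253 TPM with Sema3E (log2 difference 0.77, and 0.81 without IgG replicate 3). Mpo and Prtn3, of earlier granules, were below 1 TPM in all 6 libraries and Ly6g, the usual surface marker of mouse neutrophils, reached at most 0.239 TPM.

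The chemokine genes that differed most were those whose products draw neutrophils and monocytes. Cxcl2, a ligand of Cxcr2, was at 0.394, 0.0973 and 0 TPM with IgG and at 5.24, 1.89 and 7.33 TPM with Sema3E, without overlap. Its log2 difference was 2.21 (standard error 0.40, limma adjusted p = 0.282), and 2.10 (standard error 0.43) without IgG replicate 3. Cxcl3, on chromosome 5 like Cxcl2, encodes a ligand of the same receptor. It was at 0.466, 0.230 and 0.181 TPM with IgG and at 3.45, 0.933 and 2.13 TPM with Sema3E (log2 difference 1.22, standard error 0.31, and 1.16 without IgG replicate 3). Both entered the analysis through Sema3E libraries alone. Cxcl1, a further ligand of this receptor, showed no such separation, with 6.67, 18.9 and 16.1 TPM with IgG and 12.1, 12.9 and 10.3 TPM with Sema3E. Ccl2, which draws monocytes, was at 5.77, 11.9 and 1.68 TPM with IgG and at 18.3, 14.4 and 27.8 TPM with Sema3E. Its log2 difference of 1.73 (standard error 0.57, limma adjusted p = 0.282) was 1.13 (standard error 0.35) without IgG replicate 3. Ccl6 (log2 difference 1.48, and 0.81 without IgG replicate 3), Ccl17 (0.86 and 0.80) and Pf4 of platelets (0.62 and 0.63) also had groups that did not overlap. Of 26 chemokine ligands tested 8 were higher and 0 lower (all genes 1.58% and 16.0%), and without IgG replicate 3 there were 8 higher and 2 lower (all genes 2.70% and 21.3%), the latter Cxcl14 and Ccl25 (-0.48 and -0.24). Of the 26, 5 passed the limit only through Sema3E libraries, and with no limit 7 of 31 were higher and 1 lower. The median of the list was 0.69, and 0.52 without IgG replicate 3. Leaving out any 1 Sema3E library left 5 higher.

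The promoters of S100a8, S100a9, Cxcl2 and Cxcl3 are shown. S100a8 and S100a9 had the largest log2 differences of the neutrophil list and Cxcl2 the largest of the chemokine ligands. Cxcl3, which encodes a ligand of the same receptor as Cxcl2, had 1.22, below Ccl2 at 1.73 and Ccl6 at 1.48. The sequences are the coding-strand bases before the transcription start in the RefSeq table for GRCm38.p6, 150 bases for 3 genes and 250 for S100a9. Capitals mark matches on either strand to the NF-kappa-B motif (GGG, any 2 bases, then TTTCC), the C/EBP motif TTGCNNAA, the AP-1 motif TGANTCA or the TATA motif TATAAA.
Cxcl2 (chr5:90903749-90903898, plus strand): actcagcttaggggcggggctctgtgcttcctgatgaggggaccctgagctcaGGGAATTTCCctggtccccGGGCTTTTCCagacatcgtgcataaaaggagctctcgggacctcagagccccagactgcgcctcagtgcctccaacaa
Cxcl3 (chr5:90785951-90786100, plus strand): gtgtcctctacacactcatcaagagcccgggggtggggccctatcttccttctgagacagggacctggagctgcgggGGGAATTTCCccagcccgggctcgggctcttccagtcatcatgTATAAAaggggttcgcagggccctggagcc
S100a8 (chr3:90668921-90669070, plus strand): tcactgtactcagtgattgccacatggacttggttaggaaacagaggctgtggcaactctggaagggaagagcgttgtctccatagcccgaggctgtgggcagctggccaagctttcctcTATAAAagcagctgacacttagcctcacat
S100a9 (chr3:90695722-90695971, minus strand): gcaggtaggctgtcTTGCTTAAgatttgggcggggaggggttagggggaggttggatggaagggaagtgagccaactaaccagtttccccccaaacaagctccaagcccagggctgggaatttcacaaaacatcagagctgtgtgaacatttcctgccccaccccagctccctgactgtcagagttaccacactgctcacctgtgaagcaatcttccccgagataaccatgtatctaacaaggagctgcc
Cxcl2 has the NF-kappa-B letters starting at -97 and again at -78 from the start and Cxcl3 at -73. Among the 10321 tested genes with an entry in the table, 1.77% have these letters in the 250 bases upstream, against 3 of the 27 higher genes past the cutoffs that have an entry, the other being the histone gene H3c11. The C/EBP letters were in 8.79% of all tested promoters and in 4 of the 27 (Retnlg, S100a9, Plaur and Slfn2), the AP-1 letters in 5.63% and in 4 (Il11, Apol9b, Plaur and Ppbp), and the TATA letters in 8.34% and in 8. No match overlaps another within the stretches shown, and 7 of the 20 higher genes, among them Arg1 and Ccl2, had no entry. These matches describe letters and are not measured binding sites.

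Cytokine genes at low levels went the same way. Il1b, the main interleukin-1 of activated myeloid cells, was at 0.331, 0.398 and 0.193 TPM with IgG and at 2.36, 0.844 and 3.15 TPM with Sema3E, a log2 difference of 1.18 (standard error 0.31), and 1.11 without IgG replicate 3. Il11, a cytokine of stromal and epithelial cells that acts through gp130, was at 0.622, 0.768 and 0.0908 TPM with IgG and at 4.13, 1.56 and 5.60 TPM with Sema3E. Its log2 difference was 1.60 (standard error 0.39, limma adjusted p = 0.282), and 1.39 (standard error 0.38) without IgG replicate 3. Socs3, a feedback inhibitor of cytokine signalling, was at 69.4, 73.2 and 39.2 TPM with IgG and at 99.8, 98.3 and 133 TPM with Sema3E. Its log2 difference was 0.89 (standard error 0.26), and 0.61 (standard error 0.14) without IgG replicate 3. Tnf, Il6 and the NF-kappa-B inhibitor Nfkbia had log2 differences of 0.43, 0.91 and 0.00, and of 0.40, 0.35 and -0.20 without IgG replicate 3. They did not pass p under 0.05 before adjustment in either fit. For Tnf the groups did not overlap, with 0.207, 0.460 and 0.242 TPM with IgG and 0.472, 0.621 and 1.26 TPM with Sema3E. Il1b and Il11 were tested only through Sema3E libraries, as were 4 of the 24 interleukin, TNF and acute phase genes that passed the limit. Of the 24, 6 were higher and 0 lower in both fits (all genes 1.58% and 2.70% higher), and with no limit on TPM 9 of 28 were higher and 0 lower, or 7 and 1 without IgG replicate 3. The median went from 0.96 to 0.38 when IgG replicate 3 was left out, since 20 of the 24 had their lowest value in that library.

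Several genes of monocytes and macrophages were higher with Sema3E. Arg1, an arginine-degrading enzyme of activated macrophages, was at 0.776, 0.886 and 0.698 TPM with IgG and at 4.50, 2.55 and 2.74 TPM with Sema3E, a log2 difference of 1.23 (standard error 0.20, limma adjusted p = 0.282), and 1.19 (standard error 0.20) without IgG replicate 3. Lgals3, a galectin secreted by macrophages and epithelia, was at 4.98, 3.55 and 0.931 TPM with IgG and at 11.2, 6.68 and 14.4 TPM with Sema3E (log2 difference 1.59, standard error 0.47, and 1.12 without IgG replicate 3). S100a4, a calcium-binding protein of motile cells, was at 11.1, 7.08 and 2.09 TPM with IgG and at 25.3, 18.1 and 21.3 TPM with Sema3E (log2 difference 1.74, standard error 0.49, and 1.18 without IgG replicate 3). The annotation places 51.7% of the exon bases of S100a4 also in the predicted gene Gm42674 on the same strand, so their reads may be shared. Markers of resident macrophages differed less. C1qc, a complement subunit made by macrophages, was at 34.9, 33.7 and 16.7 TPM with IgG and at 38.6, 40.3 and 47.1 TPM with Sema3E (log2 difference 0.61, and 0.28 without IgG replicate 3), and its partner C1qa overlapped (0.59, and 0.12 without IgG replicate 3). Mrc1 and Cd163, scavenging receptors with long transcripts, had log2 differences of -0.18 and -0.08, and of -0.29 and -0.38 without IgG replicate 3, where removing the length trend as well gave 0.01 and -0.12. Arg1 was tested only through Sema3E libraries, as were 4 of the 25 monocyte and macrophage genes that passed the limit. Of the 25, 7 were higher and 0 lower (all genes 1.58% and 16.0%), or 6 and 2 without IgG replicate 3 (all genes 2.70% and 21.3%), with medians of 0.61 and 0.38, and with no limit on TPM these were 7 and 0, and 6 and 2, of 30. In 22 of the 25 the highest value was in Sema3E replicate 3, and in 21 the lowest was in IgG replicate 3. Without Sema3E replicate 3 the median was 0.53 and 5 were higher, and without Sema3E replicate 1 it was 0.67 and 3 were higher.

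Among genes of leukocyte adhesion, Selplg, the ligand of P-selectin on leukocytes, was at 1.0, 0.742 and 0.562 TPM with IgG and at 2.31, 1.32 and 2.46 TPM with Sema3E. Its log2 difference was 0.76 (standard error 0.20, limma adjusted p = 0.282), and 0.68 without IgG replicate 3. Coro1a and Rac2, which act in the movement of leukocytes, had log2 differences of 1.02 and 0.76, and 0.57 and 0.49 without IgG replicate 3. Cd44, the receptor for hyaluronan, was at 2.20, 2.47 and 0.711 TPM with IgG and at 3.37, 3.02 and 3.31 TPM with Sema3E, a log2 difference of 0.66 (standard error 0.28, limma adjusted p = 0.287), and 0.34 (standard error 0.10, limma adjusted p = 0.185) without IgG replicate 3. On the endothelial side, Selp, which encodes P-selectin, was at 0.539, 0.614 and 0.538 TPM with IgG and at 0.962, 0.770 and 1.1 TPM with Sema3E, without overlap (log2 difference 0.31, standard error 0.14, and 0.30 without IgG replicate 3). Icam1 overlapped, at 13.7, 17.4 and 5.17 TPM with IgG and at 15.4, 16.1 and 15.1 TPM with Sema3E, and Vcam1 lay between 6.97 and 8.32 TPM in all 6 libraries. Of 20 adhesion genes tested, 5 of them only through Sema3E libraries, 7 were higher and 0 lower (all genes 1.58% and 16.0%), or 8 and 1 without IgG replicate 3 (all genes 2.70% and 21.3%). With no limit on TPM 9 of 22 were higher and 0 lower, but within the 20, without Sema3E replicate 1 and without Sema3E replicate 3 only 1 was higher each time.

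Interferon-stimulated genes were highest in Sema3E replicate 3 and mostly lowest in IgG replicate 3. Isg15, a ubiquitin-like protein induced by interferon, was at 61.6, 73.2 and 3.78 TPM with IgG and at 93.9, 78.3 and 201 TPM with Sema3E. Ifit3, an antiviral protein of the same response, was at 6.82, 9.11 and 2.21 TPM with IgG and at 9.52, 9.86 and 51.2 TPM with Sema3E. Cxcl10, a chemokine induced by interferon, was at 3.50, 8.85 and 2.54 TPM with IgG and at 5.09, 4.49 and 35.2 TPM with Sema3E, with a log2 difference of 0.98 (standard error 0.80, limma adjusted p = 0.467) and of 0.68 (standard error 0.86) without IgG replicate 3. For all 28 interferon-stimulated genes tested the highest of the 6 values was in Sema3E replicate 3, and for 24 the lowest was in IgG replicate 3. Of the 28, 5 of which passed the limit only through Sema3E libraries, 27 had positive differences, and 3 were higher at an unadjusted p under 0.05 in limma, against 1.58% of all genes. The median was 0.65, and 0.43 without IgG replicate 3 or 0.27 without Sema3E replicate 3. Ly6c2, a marker of inflammatory monocytes, had the same pattern, with 0.642, 0.582 and 0.333 TPM with IgG and 1.07, 1.38 and 15.1 TPM with Sema3E. Ly6c2 RNA and the interferon-stimulated genes were thus high together in 1 library, and what set it apart was not tested.

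Single genes of matrix turnover differed in either direction, but lower genes were no larger a share of the list than of all genes. Of 26 matrix protease and inhibitor genes 3 were higher and 2 lower (all genes 1.58% and 16.0%), with a median of 0.27, or 4 and 5 without IgG replicate 3 (all genes 2.70% and 21.3%), with a median of -0.04. Of the 26, 2 passed the limit only through Sema3E libraries, Mmp9 among them. Plaur, the receptor for urokinase, was at 6.49, 6.25 and 1.18 TPM with IgG and at 11.9, 8.91 and 11.7 TPM with Sema3E (log2 difference 1.26, standard error 0.49, and 0.67 without IgG replicate 3). The urokinase gene itself did not follow, with Plau at 562, 550 and 161 TPM with IgG and 503, 509 and 473 TPM with Sema3E, nor did that of the tissue-type activator, with Plat at 48.8, 61.1 and 24.0 TPM with IgG and 46.2, 50.3 and 44.3 TPM with Sema3E. Serpine2, a serine protease inhibitor, was lower, with a log2 difference of -0.49 (standard error 0.16), and -0.34 without IgG replicate 3. Has1, a hyaluronan synthase, was at 0.915, 1.02 and 0.214 TPM with IgG and at 4.12, 2.22 and 4.87 TPM with Sema3E, a log2 difference of 1.46 (standard error 0.30), and 1.22 (standard error 0.25) without IgG replicate 3. Mmp9, a gelatinase of neutrophils, was below 0.69 TPM in each IgG library and at 2.59, 0.953 and 1.92 TPM with Sema3E, and Adamts5, an aggrecan-degrading protease, was at 6.29, 6.14 and 7.55 TPM with IgG and at 3.79, 4.66 and 3.24 TPM with Sema3E (log2 difference -0.65, and -0.57 without IgG replicate 3), but at -0.19 without IgG replicate 3 and with the length trend removed.

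Keratins of the ovarian surface epithelium and mesothelium were higher with Sema3E. Krt8 was at 60.0, 53.2 and 64.3 TPM with IgG and at 112, 85.7 and 102 TPM with Sema3E, and its partner Krt18 at 48.5, 43.4 and 39.2 TPM with IgG and at 88.5, 69.6 and 93.4 TPM with Sema3E. The log2 differences were 0.74 (standard error 0.13, limma adjusted p = 0.282) and 0.92 (standard error 0.15, limma adjusted p = 0.282), and without IgG replicate 3 they were 0.80 and 0.84. IgG replicate 3 lay with the other controls for both genes. Krt19 (log2 difference 0.76, standard error 0.18) and Krt7 (1.14, standard error 0.36) had groups that did not overlap either, with 0.59 and 0.74 without IgG replicate 3. Some other genes of the same epithelium had lower values. Upk3b, an uroplakin that marks mesothelium, was at 49.7, 35.0 and 56.0 TPM with IgG and at 22.4, 32.1 and 20.5 TPM with Sema3E (log2 difference -0.88, standard error 0.23, and -0.74 without IgG replicate 3). Lrrn4, a leucine-rich membrane protein of mesothelium, had -0.76 and Rspo1, an activator of Wnt signalling, -0.74, with -0.60 and -0.52 without IgG replicate 3. Of 22 genes of this list tested, 6 were higher and 4 lower, against 1.58% and 16.0% of all genes, so the share of lower genes was near that of all genes. Without IgG replicate 3 there were 8 and 7, against 2.70% and 21.3% (8 and 4 after scaling, 8 and 1 with the length trend removed). The median of the list was 0.13 with 6 libraries and 0.08 without IgG replicate 3, against -0.17 and -0.15 for all genes. Epcam and Cdh1, of epithelia in general, were at 3.32, 2.31 and 6.07 TPM and at 1.31, 1.20 and 2.34 TPM with IgG, and at 7.44, 4.80 and 7.76 TPM and at 2.25, 1.45 and 1.91 TPM with Sema3E. Ovgp1, made by the oviduct, a neighbouring epithelium, was at 2.84, 2.77 and 21.4 TPM with IgG and at 3.76, 0.880 and 3.74 TPM with Sema3E. Its highest value was thus in IgG replicate 3, the control that stood apart. Whether the share of surface epithelium in each piece of tissue had a part in these differences was not tested.

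**Figure D3:**
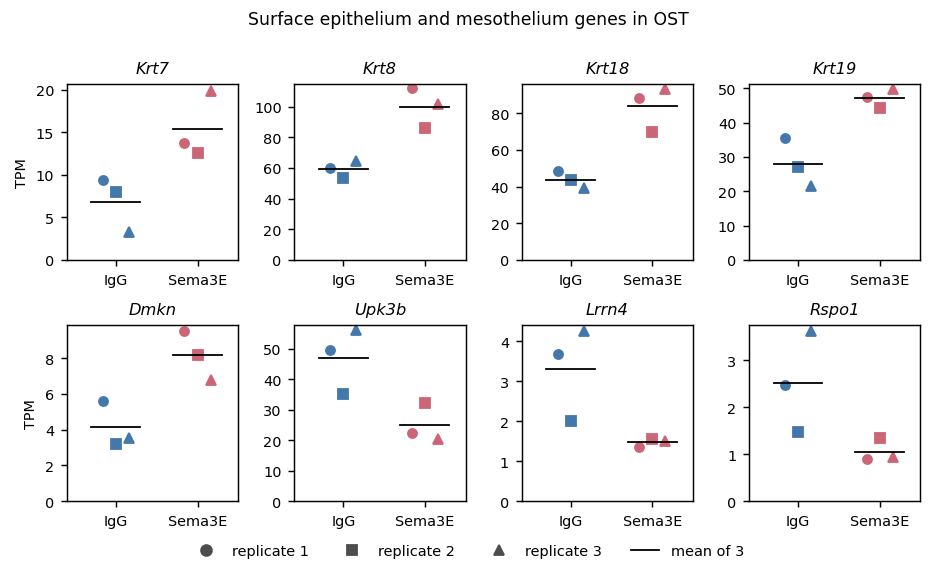
TPM of 8 genes of the surface epithelium and mesothelium in IgG (blue) and Sema3E (red) OST libraries, with symbols for the replicates and a bar for the mean of 3. Krt7, Krt8, Krt18, Krt19 and Dmkn are higher in all Sema3E libraries than in any IgG library, and Upk3b, Lrrn4 and Rspo1 are lower, with Krt8 at 112, 85.7 and 102 TPM against at most 64.3.

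Lower past the cutoffs in both fits were 5 genes, of which H2bc15 and H2ac10 are histones. Prph, which encodes the intermediate filament peripherin of peripheral nerves, was at 5.72, 5.71 and 5.09 TPM with IgG and at 1.79, 2.74 and 1.59 TPM with Sema3E. The log2 difference was -1.11 (standard error 0.17, limma adjusted p = 0.282), and -1.16 (standard error 0.17, limma adjusted p = 0.185) without IgG replicate 3. Zbed6, a transcription factor that lies within another gene, was at 19.5, 20.5 and 33.0 TPM with IgG and at 4.29, 12.1 and 13.5 TPM with Sema3E (log2 difference -1.30, standard error 0.42, and -1.07 without IgG replicate 3). The histone genes belong to a family of near-identical copies, for which the division of reads between copies is uncertain, and Nscme3l was at 3.19, 3.35 and 3.42 TPM with IgG and at 0.910, 0.320 and 1.62 TPM with Sema3E. Pcdhgc4, a protocadherin that shares 37.9% of its exon bases with its neighbours in the gene cluster, was among the higher genes, at 2.02, 2.31 and 1.92 TPM with IgG and at 17.2, 5.20 and 6.33 TPM with Sema3E (log2 difference 1.61, standard error 0.40, and 1.57 without IgG replicate 3). Wnt2b, a Wnt ligand, and Irs1, an adaptor of the insulin receptor, passed the cutoffs with 6 libraries (-1.16 and -1.03) but were at -0.88 and -0.75 without IgG replicate 3.

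The broad set of lower genes went with transcript length. Of the 13050 genes, 12994 had a length in GENCODE M21, and their median transcript length was 2109 nt, against 3130 nt for the 2094 lower genes and 856.5 nt for the 206 higher genes. The median log2 difference was 0.01 for the 235 genes of up to 500 nt, -0.14 for those of 1500 to 2000 nt and -0.33 for the 649 genes over 6000 nt, and without IgG replicate 3 it was 0.00, -0.12 and -0.31. Among the longest genes 40.2% were lower at an unadjusted p under 0.05 in limma and 0.154% higher, whereas among the shortest 8.51% were lower and 12.3% higher. When the trend with length was taken out of each library, which was done after seeing the data, 501 genes were higher (3.84%) and 533 lower (4.08%), and the cutoffs were passed by 56 higher and 6 lower genes. The log2 differences of the leading genes moved little, to 3.49 for S100a8, 2.30 for Cxcl2, 0.88 for Krt8 and -0.98 for Prph, while that of Zbed6 became -0.91. Differences of less than about the size of this trend in long genes are therefore not read singly here. Whether RNA quality or library preparation had a part in the trend was not tested.

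**Figure D4:**
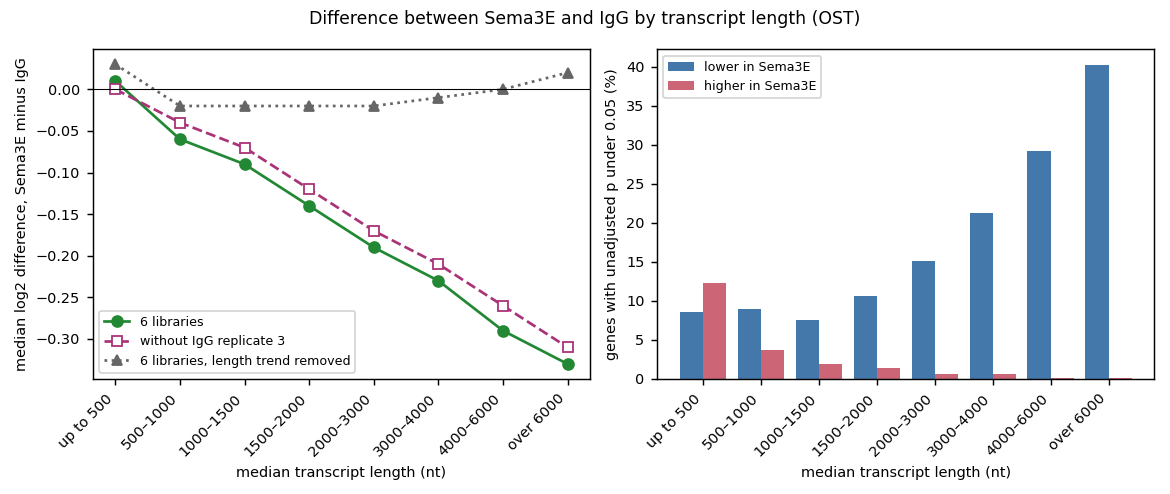
On the left, the median log2 difference (Sema3E minus IgG, log2(TPM + 1)) of genes grouped by median transcript length in nt, for 6 libraries, without IgG replicate 3 and with the trend removed. On the right, the percentage of genes in each length group with an unadjusted p under 0.05 in 6 libraries, lower (blue) or higher (red) with Sema3E. The median falls from 0.01 to -0.33 and the lower genes reach 40.2% over 6000 nt.

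The single gene to pass an adjusted p under 0.05 without IgG replicate 3 was mt-Atp8, a subunit of the mitochondrial ATP synthase with a transcript of 204 nt in the annotation. It was at 402, 364 and 672 TPM with IgG and at 806, 853 and 891 TPM with Sema3E, and rose by a log2 of 1.15 (standard error 0.08, limma adjusted p = 0.0494) with 5 libraries, against 0.88 (standard error 0.24, limma adjusted p = 0.282) with 6. After scaling by median ratios, or with the length trend removed, no gene passed without IgG replicate 3. Its exons overlap those of mt-Atp6, which was at 17286, 17473 and 14728 TPM with IgG and at 19446, 15334 and 16630 TPM with Sema3E, a log2 difference of 0.05. IgG replicate 3 lay between the other IgG libraries and the Sema3E libraries for mt-Atp8. The short mRNA of the ribosomal protein Rps29 was also higher with Sema3E than in IgG replicates 1 and 2 but highest in IgG replicate 3, with 529, 570 and 1302 TPM with IgG and 951, 1034 and 1046 TPM with Sema3E.

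The injected ligand was a protein, so its mRNA does not check the labels. Sema3e mRNA was low in OST, at 0.349, 0.329 and 0.199 TPM with IgG and at 0.373, 0.399 and 0.582 TPM with Sema3E, and did not reach the limit of 1 TPM. Plxnd1, which encodes the receptor Plexin-D1, was at 47.8, 37.9 and 23.2 TPM with IgG and at 35.5, 42.2 and 46.0 TPM with Sema3E. The groups overlapped, with a log2 difference of 0.23 (standard error 0.27, limma adjusted p = 0.601), and -0.05 (standard error 0.15, limma adjusted p = 0.825) without IgG replicate 3, so the sign turned on that library, and with median-ratio scaling as well it was 0.13. Of 19 semaphorin and plexin pathway genes tested, 0 were higher and 4 lower, namely Sema3c, Plxna3, Plxnb2 and Plxnc1, against 16.0% lower among all genes, and with the length trend removed 0 of the 19 were lower. Plxna3, a receptor of class 3 semaphorins, was at 21.6, 22.0 and 22.8 TPM with IgG and at 13.7, 17.3 and 15.7 TPM with Sema3E (log2 difference -0.49, standard error 0.11, and -0.47 without IgG replicate 3), but with the length trend removed its log2 difference was -0.14.

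Genes of endothelial cells, on which Plexin-D1 is best known, were close between groups once IgG replicate 3 was left out. Pecam1, an adhesion molecule of all endothelium, was at 10.9, 10.4 and 4.11 TPM with IgG and at 10.7, 11.3 and 11.5 TPM with Sema3E, and Cdh5, the cadherin of endothelial junctions, at 30.0, 28.6 and 14.4 TPM with IgG and at 27.2, 26.9 and 31.0 TPM with Sema3E. Their log2 differences were 0.46 and 0.28 with 6 libraries and 0.06 (standard error 0.09) and -0.05 (standard error 0.10) with 5. The median of 24 endothelial genes went from 0.30 to -0.07 (0.10 after scaling), since 20 of them were lowest in IgG replicate 3, and 0 were higher and 5 lower without that library against 21.3% lower among all genes. Of 35 angiogenesis regulators, 1 was higher and 1 lower (all genes 1.58% and 16.0%), or 0 and 4 without IgG replicate 3 (all genes 2.70% and 21.3%). Vegfa, the main growth factor of vessels, was at 131, 87.4 and 54.6 TPM with IgG and at 86.7, 94.7 and 119 TPM with Sema3E, and Angpt2, which loosens vessel walls, at 5.11, 7.62 and 5.77 TPM with IgG and at 4.55, 5.78 and 5.96 TPM with Sema3E. Both overlapped, with log2 differences of -0.11 and -0.18 without IgG replicate 3 (limma adjusted p = 0.746 and adjusted p = 0.513). Genes of smooth muscle and pericytes, the contractile cells around vessels, had 0 higher and 1 lower of 19 with 6 libraries (median 0.05). Without IgG replicate 3, 8 of 19 were lower at an unadjusted p under 0.05 against 21.3% of all genes, with a median of -0.26 against -0.15 for all genes, but after median-ratio scaling 2 of 19 were lower and the median was -0.08. Tagln, an actin-binding protein of smooth muscle, was at 473, 506 and 160 TPM with IgG and at 347, 400 and 338 TPM with Sema3E, a log2 difference of 0.10 with 6 libraries and -0.44 (standard error 0.10, limma adjusted p = 0.185) without IgG replicate 3.

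For steroid synthesis, cholesterol supply and the ovulatory response the sign of the whole list rested on IgG replicate 3. The medians with 6 libraries were 0.58 for 26 genes of theca and steroidogenesis, 0.79 for 25 of cholesterol synthesis and uptake and 0.47 for 28 of the ovulatory response, and without IgG replicate 3 they were -0.10, -0.10 and -0.15, or 0.08, 0.07 and 0.03 after median-ratio scaling. Cyp11a1, which makes the first steroid from cholesterol, was at 1929, 1197 and 32.4 TPM with IgG and at 1449, 1672 and 1754 TPM with Sema3E, a log2 difference of 1.93 with 6 libraries and 0.09 (standard error 0.20) with 5. Without IgG replicate 3, 9 of the 28 ovulatory genes were lower at an unadjusted p under 0.05 and 0 higher, against 21.3% lower among all genes, and after scaling 4 were lower. Sult1e1, which inactivates estrogen, was at 66.1, 68.5 and 0.0406 TPM with IgG and at 34.2, 53.9 and 45.4 TPM with Sema3E (log2 difference 1.40, and -0.61 without IgG replicate 3), and Adamts1, a protease needed for ovulation, at 486, 532 and 22.7 TPM with IgG and at 277, 392 and 363 TPM with Sema3E (log2 difference 0.90, and -0.58 without IgG replicate 3). Agtr2, an angiotensin receptor, was at 6.65, 4.44 and 38.0 TPM with IgG and at 6.70, 4.03 and 2.44 TPM with Sema3E, so that its log2 difference of -1.20 (standard error 0.75) became -0.34 (standard error 0.34). The oocyte list went from -0.74 to -0.22 in the same way.

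**Figure D5:**
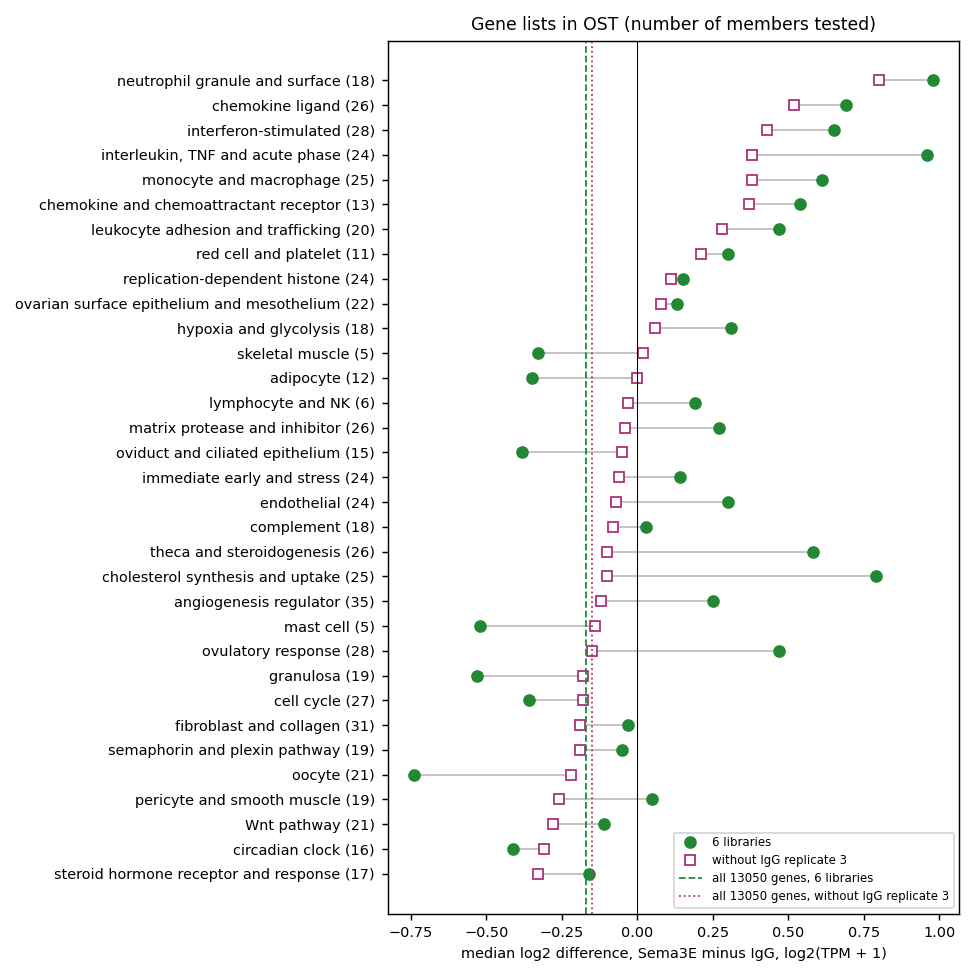
Median log2 difference (Sema3E minus IgG, log2(TPM + 1)) of 33 gene lists in OST with 6 libraries (filled) and without IgG replicate 3 (open), with the number of members tested in parentheses and broken lines for the medians of all 13050 genes. The neutrophil list is at 0.98 and 0.80 and the chemokine ligands at 0.69 and 0.52, while theca and steroidogenesis go from 0.58 to -0.10 and cholesterol synthesis and uptake from 0.79 to -0.10.

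In GCs of the same series, the SD in TPM of the leukocyte genes S100a8 and Ccl2 was larger than in OST in both groups. The mean of S100a8 was also higher in GCs in both groups, so these SDs do not compare spread relative to the level. S100a8 was at 164 ± 231 TPM with IgG and 165 ± 104 TPM with Sema3E in GCs (SD, n = 3 each), against 4.64 ± 4.02 and 53.1 ± 43.1 TPM in OST, and Ccl2 at 50.7 ± 80.4 and 15.7 ± 8.65 TPM in GCs, against 6.44 ± 5.12 and 20.1 ± 6.90 TPM in OST. Whether the difference between Sema3E and IgG was itself different in OST and GCs was tested with all 12 libraries in limma, where 0 of 13379 genes passed an adjusted p under 0.05 (0%, lowest adjusted p = 0.17), and 0 without IgG replicate 3 (lowest adjusted p = 0.0573). At an unadjusted p under 0.05 in limma, the difference was more positive in OST for 170 of the 13379 genes and more negative for 2527. This excess went with a shift of all genes. The median gap between tissues was -0.217, beside the median log2 difference of -0.174 in OST. The gap between tissues was 2.57 on the log2 scale for S100a8 (limma adjusted p = 0.372) and 1.62 for Il11 (limma adjusted p = 0.17), with Il11 at 0.295 ± 0.225 TPM with IgG and 0.273 ± 0.216 TPM with Sema3E in GCs (SD, n = 3 each). For Krt8 it was 0.05 (limma adjusted p = 0.968), with a log2 difference of 0.69 in GCs. No gene is therefore shown to respond in OST alone.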

How the data were processed

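RNA from 12 samples, OST and GCs with Sema3E or IgG (3 each), had been sequenced. The deposited values were TPM per gene, which the authors made with edgeR 1.3.3 after alignment with HISAT2 2.0.5 and counting with featureCounts 1.5.0-p3. The results of the authors' own differential test were not used. The genome annotation and the division of reads among near-identical genes are not given in the sources used here.

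Protein-coding genes above 1 TPM in at least 1 of 6 OST libraries were compared on log2(TPM + 1), with a pseudocount of 1, in limma 3.58.1 (R 4.3.3) with trended, robust variance and Benjamini-Hochberg adjustment over all 13050 genes. Fold changes on this scale understate those of low genes. Each replicate was the tissue of 1 ovary per the methods of the study, and the replicate numbers in the labels were not used as pairs. The 12-library fit tested the tissue difference. The step was tested on simulated data. Transcript lengths and exon overlaps came from GENCODE M21 and promoters from RefSeq (GRCm38.p6).

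The comparison, its members and the 33 gene lists (716 genes, 702 matched) were chosen with earlier results of these data, and the study's own gene tables, known. Genes named are those passing the cutoffs in both fits, members of the lists, the ligand and its receptor, and others on which a count turned. Alternatives covered each library left out, the pseudocount, filters, scaling, limma settings and the replicate block. Removal of the length trend and the combinations with IgG replicate 3 left out were added after seeing the data. TPM give no depth, so no counting intervals were made. Some genes past the cutoffs are not reported here.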

Additional observations from a re-analysis of the deposited data

How the results depend on the processing

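The log2 differences of S100a8, S100a9, Retnlg, Cxcl2, S100a4, Ccl2, Il11, Lgals3, Has1, Krt8, Krt19, Prph and mt-Atp8 kept their direction under all 19 alternatives each, and of these 247 values 245 stayed on the same side of an adjusted p of 0.05 (limma). The exceptions were mt-Atp8 without IgG replicate 3, with a pseudocount of 1 (1.15, limma adjusted p = 0.0494) and of 0.1 (limma adjusted p = 0.0466). Staying on the same side here meant staying above 0.05. The groups did not overlap for any of these genes, so leaving out 1 library could not turn their direction. Those settings are therefore no test of it. At p under 0.05 before adjustment in limma, Ccl2 passed in 16 of 19 and Lgals3 in 17. Cxcl2, S100a4, Krt8 and Krt19 passed in 18 each, and the rest of these genes in all 19. Plxnd1 went from 0.23 to -0.05 without IgG replicate 3, with either pseudocount, and leaving out 1 library gave -0.05 to 0.45.

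Counts moved more, and for the scaling and filter settings the cause was not tested. Leaving out 1 library gave 0 to 1 genes at an adjusted p under 0.05, 93 to 374 higher and 727 to 2775 lower at an unadjusted p under 0.05, and 23 to 121 higher and 8 to 133 lower past the cutoffs, the most without IgG replicate 1 (121 and 133) or IgG replicate 2 (69 and 74) and the fewest without IgG replicate 3 (24 and 8), Sema3E replicate 1 (24 and 11) or Sema3E replicate 3 (23 and 17). Median-ratio scaling gave 798 higher and 552 lower at p under 0.05, and 57 and 6 past the cutoffs, and without IgG replicate 3 it gave 1363, 898 and, past the cutoffs, 39 and 4. Removing the length trend gave 501 and 533, with 56 and 6 past the cutoffs, and without IgG replicate 3 932 and 883, with 31 and 5. A pseudocount of 0.1 gave 69 and 74 past the cutoffs, and without IgG replicate 3 66 and 33, with 359 higher at p under 0.05 and 1 at an adjusted p under 0.05. All biotypes gave 63 and 91, a fit of all 12 libraries 28 lower, and a fold taken from the ratio of group means 73 and 83. With the replicate number as a replicate block, 113 were higher and 1146 lower, and 35 and 17 passed the cutoffs. Same-numbered libraries deviated with correlations of -0.275, -0.024 and -0.385, so the numbers were not taken as pairs. Alternatives that need read counts were not run, because the values are TPM, and the unknown depth limits the low genes most.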
